A study of Mus musculus with 6 samples.

Results

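The CC chemokine genes Ccl2, Ccl5, Ccl7, Ccl8, Ccl9, Ccl11 and Ccl20 were followed in mouse muscle mesenchymal stem cells exposed to products of control or senescent macrophages. These 7 genes were chosen by name, with earlier results of these data known. Of them, 5 (Ccl2, Ccl7, Ccl8, Ccl9 and Ccl11) were among the 18124 genes listed in the deposited count table. Ccl5 and Ccl20 were not listed. The table holds no gene with a sum below 10 estimated counts over the 6 libraries, so both may have fallen under that sum or lack an entry in the authors' annotation, and neither has a value here.

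The cells were quadriceps cells of male Col1-GFP mice (6 animals), which carry a green fluorescent protein driven by collagen 1, sorted as GFP-positive and Sca-1-positive and used at passage 4. Both groups carried this reporter and both were kept for 72 hours in medium from bone marrow-derived macrophages. In the control group (3 libraries) the macrophages were not senescent, and in the senescent group (3 libraries) they had been exposed for 3 hours to 300 µM H2O2, again 3 days later, and then cultured for 14 days. Neither the animals' ages nor the culture time of the control macrophages is stated in the sources used here, and no label ties a library to its own animals, cell isolate or batch of medium. The p-values therefore weigh differences against the variation among these 6 libraries only, and that variation may be technical.

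CC chemokines are small secreted proteins with adjacent cysteines near the start of the mature chain. They bind seven-helix receptors on leukocytes and, held on heparan sulfate, guide those cells into tissue. In muscle, stromal cells are a known source of the monocyte attractants, and inflammatory signals through NF-kB are a classic inducer. CCL2, CCL7 and, in mouse, CCL8 draw monocytes and other leukocytes, CCL11 (eotaxin) draws eosinophils through CCR3, CCL9 acts through CCR1, CCL5 draws T cells and monocytes, and CCL20 acts through CCR6.

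The coding stretch that gives the family its name is shown for the 5 measured members, because it carries the feature they share and shows how far their sequences otherwise differ. Capitals mark the codons of the adjacent cysteines, each line is 60 bases of coding strand from 5′ to 3′, and the sequences come from the GENCODE M21 transcripts.
Ccl2: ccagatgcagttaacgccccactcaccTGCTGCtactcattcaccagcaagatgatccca
Ccl7: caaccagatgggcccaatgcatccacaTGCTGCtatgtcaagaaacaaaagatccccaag
Ccl11: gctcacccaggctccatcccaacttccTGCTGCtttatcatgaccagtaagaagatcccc
Ccl8: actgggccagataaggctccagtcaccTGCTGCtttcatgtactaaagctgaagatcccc
Ccl9: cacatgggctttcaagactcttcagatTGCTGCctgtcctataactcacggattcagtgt

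All 5 used the same codon pair at this place. Over the whole coding sequence, Ccl7 and Ccl11 were identical at 66.3% of alignment columns, in which gaps counted as differences. Ccl7 and Ccl8 were identical at 65.0%, and Ccl11 and Ccl8 at 63.1%. Ccl2 has a longer coding sequence (447 bases against 294 for each of these 3) and matched Ccl7 at 46.6%. Ccl9 matched the other 4 at 45.8% to 50.1%. Extra bases of a longer sequence counted as gaps, so these lower figures do not by themselves show greater divergence. Ccl2 and Ccl7 shared 210 identical bases over 451 columns, and Ccl7 and Ccl11 shared 197 over 297. The longest run of identical bases shared by any pair of member transcripts was 23, between Ccl2 and Ccl7, well short of the 150 bp reads. No exon of a member was overlapped by an exon of another annotated gene (0%). Ccl2, Ccl7, Ccl11 and Ccl8 lie on the plus strand of chromosome 11, where Ccl2, Ccl7 and Ccl11 are consecutive coding genes and Ccl12, which was not listed, stands between Ccl11 and Ccl8. Ccl9 is on the minus strand of the same chromosome, between Ccl5 and Ccl6, and Ccl20 is on chromosome 1.

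All 5 measured CC chemokine genes were lower in cells kept in senescent macrophage medium, by 1.61-fold for Ccl7 up to 8.67-fold for Ccl11. Each passed the threshold (edgeR quasi-likelihood test, Benjamini-Hochberg adjusted p under 0.05 over all 14644 genes tested), where 24.9% of all tested genes were called lower. For all 5 the libraries of both media did not overlap in CPM, which held in the lower direction for 28% of tested genes. A log2 fold change of -1 or less with a call was found for 3 of the 5 (Ccl2, Ccl8 and Ccl11) and for 3.27% of tested genes; 24.6% of tested genes were called higher. The median log2 fold change of the 5 was -1.28, against -0.000961 over all genes tested. All 5 passed the filter on low counts, and none had fewer than 33 counts in any library. In bulk RNA, fewer expressing cells and less RNA per cell cannot be told apart.

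**Figure D1:**
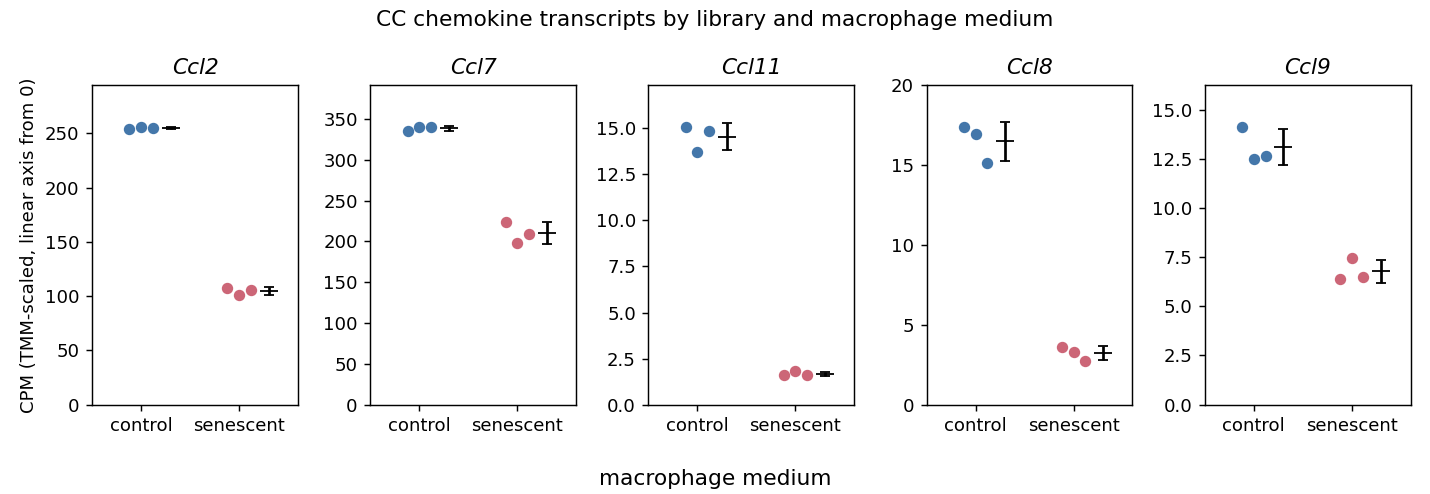
CPM of Ccl2, Ccl7, Ccl11, Ccl8 and Ccl9 in each library (points; blue, control medium; red, senescent medium), with the mean and SD of 3 libraries beside them, on linear axes that start at 0 and differ between genes. In every panel the 3 senescent-medium points lie below the 3 control points, with the widest relative gap for Ccl11 (14.6 against 1.68 CPM).

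Among the monocyte attractants, Ccl2 is the ligand of CCR2 that brings monocytes out of the marrow and into injured tissue. Its CPM (counts scaled to the TMM-adjusted library total) was 253.6, 256.1 and 255.2 in control replicates 1, 2 and 3, and 107.5, 100.6 and 106.0 in senescent-medium replicates 1, 2 and 3. The control libraries were nearly equal, and every senescent-medium library was below the lowest of them. The mean went from 255 ± 1.28 to 105 ± 3.65 CPM (SD, n = 3 each), a log2 fold change of -1.28 ± 0.038 (SE; adjusted p = 1.79e-22, edgeR).

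Ccl7, another CCR2 ligand and the next gene on the chromosome, was the most abundant member and fell least. It had 334.9, 340.5 and 340.5 CPM in the control libraries and 223.4, 197.6 and 209.6 CPM in the senescent-medium libraries. The groups were again separate, with a wider spread in senescent medium. The mean went from 339 ± 3.20 to 210.2 ± 12.9 CPM (SD), a log2 fold change of -0.69 ± 0.038 (SE; adjusted p = 1.73e-15, edgeR).

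Ccl8, the last of the 4 genes in this stretch, was much less abundant. It had 17.4, 16.9 and 15.1 CPM in control libraries, resting on 309, 367 and 269 counts, and 3.60, 3.30 and 2.74 CPM in senescent medium, resting on 75, 62 and 57 counts. The highest senescent-medium value was far below the lowest control value. The log2 fold change was -2.36 ± 0.13 (SE; adjusted p = 3.93e-16, edgeR), or 5.13-fold, and it ranked 21 of 14644 tested genes from the lowest log2 fold change.

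Ccl11, the eosinophil attractant, showed the largest fall of the 5. The control libraries held 268, 298 and 264 counts (15.1, 13.7 and 14.8 CPM) and the senescent-medium libraries 33, 34 and 34 (1.58, 1.81 and 1.63 CPM). Replicates were close within each medium, and the lowest control value was several times the highest senescent-medium value. The log2 fold change was -3.12 ± 0.14 (SE; adjusted p = 8.76e-18, edgeR), rank 5 of 14644 from the lowest. With about 34 counts per senescent-medium library, the level there is known less precisely than those of Ccl2 or Ccl7, and the standard error is wider accordingly.

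Ccl9, a CCR1 ligand outside the Ccl2 to Ccl8 stretch, fell by an amount between those of Ccl7 and Ccl2. It had 14.1, 12.5 and 12.6 CPM in control libraries and 6.38, 7.45 and 6.49 CPM in senescent medium. The groups did not overlap, and the spread within each was larger, relative to the mean, than for Ccl2. The mean went from 13.1 ± 0.906 to 6.77 ± 0.591 CPM (SD), a log2 fold change of -0.95 ± 0.11 (SE; adjusted p = 2.14e-08, edgeR).

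**Figure D2:**
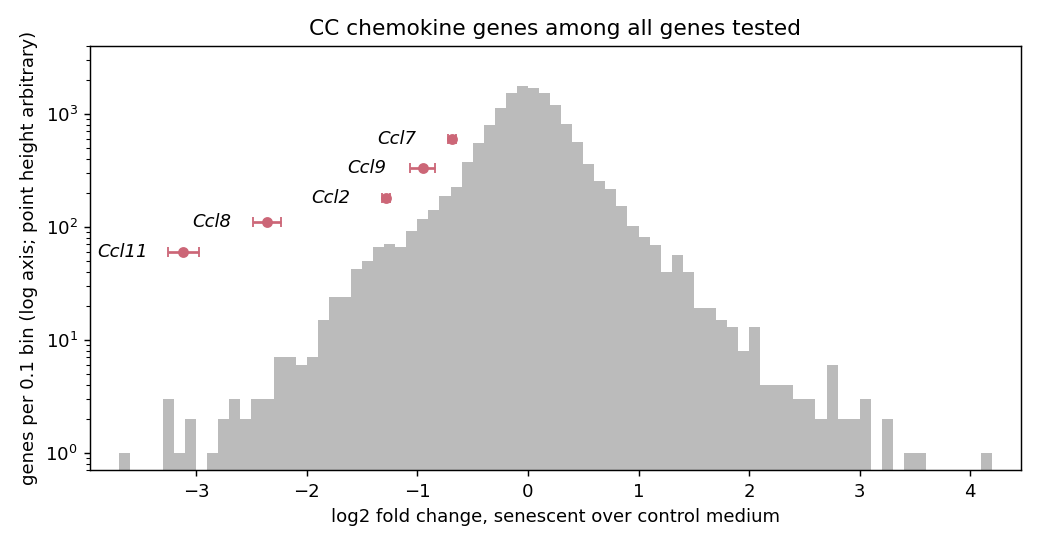
Distribution of log2 fold changes (senescent over control medium, bins of 0.1, log count axis) for the 14644 genes tested, with the 5 members as red points with their SE. The height of a point has no meaning; the members lie between -0.69 (Ccl7) and -3.12 (Ccl11), all on the lower side.

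Levels per kilobase of annotated exon (RPKM, from the TMM-scaled CPM) put the members in order. In control medium Ccl7 stood at 423 RPKM, Ccl2 at 224, Ccl8 at 32.2, Ccl11 at 13.4 and Ccl9 at 4.30. Ccl7 and Ccl2 were above 99.4% and 98.8% of tested genes, Ccl8 above 89.97%, Ccl11 above 76.5% and Ccl9 above 48.1%. In senescent medium the order changed at its lower end. There Ccl7 stood at 262 RPKM, Ccl2 at 92.0, Ccl8 at 6.29, Ccl9 at 2.22 and Ccl11 at 1.55. Ccl11 and Ccl9 thus changed places, with 1.46 to 1.67 RPKM for Ccl11 and 2.10 to 2.45 for Ccl9 across the 3 libraries. No neighbours in either order overlapped between libraries of the same medium.

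The summed CPM of the 5 members was 638 ± 2.35 in control and 327 ± 15.9 in senescent medium (SD, n = 3 each). Ccl2 and Ccl7 together made up 93.1% ± 0.368 of the members' counts in control and 96.4% ± 0.396 in senescent medium. Within this sum the balance moved towards Ccl7, whose share went from 53.1% ± 0.323 to 64.3% ± 0.828 while that of Ccl2 went from 40.0% ± 0.0551 to 32.1% ± 0.591. The share of Ccl11 went from 2.28% ± 0.120 to 0.515% ± 0.0614 and that of Ccl8 from 2.58% ± 0.192 to 0.984% ± 0.126. Ccl9 had a share of 2.05% ± 0.150 in control and 2.08% ± 0.280 in senescent medium.

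The unequal falls were also compared as ratios to Ccl2 within each library, which do not depend on how libraries are scaled. Ccl7 had 1.32, 1.33 and 1.33 counts per count of Ccl2 in the control libraries and 2.08, 1.96 and 1.98 in the senescent-medium libraries. The log2 ratio was 0.59 higher in senescent medium. For Ccl9 the log2 ratio was 0.33 higher, with 0.0558, 0.0488 and 0.0497 counts per Ccl2 count in control and 0.0595, 0.0743 and 0.0614 in senescent medium, a narrow separation. For Ccl8 and Ccl11 the log2 ratios changed by -1.07 and -1.82. The 3 libraries of each medium did not overlap for any of the 4 ratios. Each two-sided exact permutation p was 0.1 and stayed 0.1 after Benjamini-Hochberg adjustment over the 4 ratios; 0.1 is the smallest p that 3 against 3 libraries can give, so no ratio could pass 0.05.

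**Figure D3:**
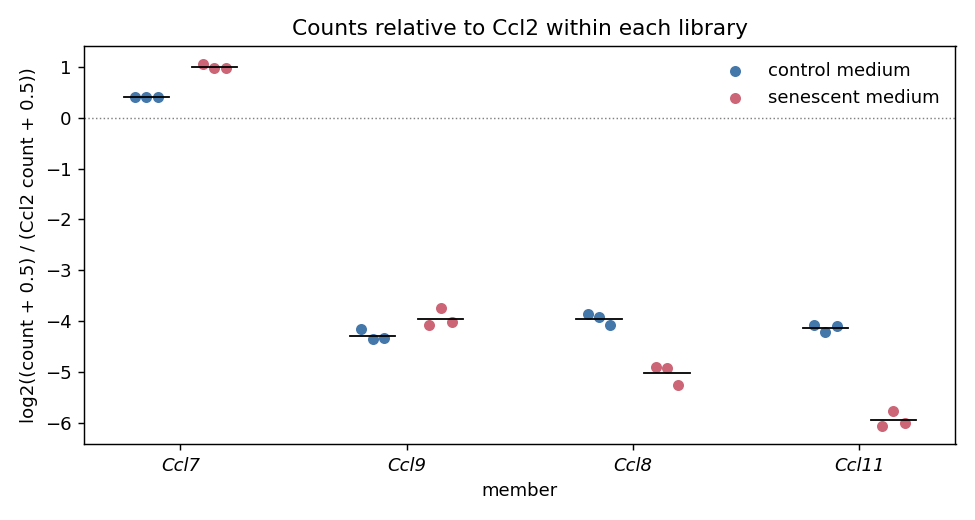
Log2 ratio of the counts of Ccl7, Ccl9, Ccl8 and Ccl11 to those of Ccl2 in the same library, with 0.5 added to each count (blue, control medium; red, senescent medium; black lines, means of 3 libraries). Ccl7 and Ccl9 lie higher relative to Ccl2 in senescent medium (by 0.59 and 0.33), and Ccl8 and Ccl11 lie lower (by 1.07 and 1.82 on the log2 scale).

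Of the 7 members, 3 had an entry in the RefSeq promoter set used here: Ccl8, Ccl9 and Ccl20. The 250 bases before the start site are shown for Ccl8 and Ccl9, the 2 with both a promoter and a measured fall (build GRCm38.p6; capitals mark the letters TATAAA and TGANTCA on either strand).
Ccl8, chr11:82114935-82115184, plus strand: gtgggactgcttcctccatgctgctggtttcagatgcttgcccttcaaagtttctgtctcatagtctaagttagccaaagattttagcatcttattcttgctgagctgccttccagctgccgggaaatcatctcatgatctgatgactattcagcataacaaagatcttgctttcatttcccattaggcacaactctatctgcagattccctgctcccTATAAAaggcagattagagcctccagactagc
Ccl9, chr11:83578637-83578886, minus strand: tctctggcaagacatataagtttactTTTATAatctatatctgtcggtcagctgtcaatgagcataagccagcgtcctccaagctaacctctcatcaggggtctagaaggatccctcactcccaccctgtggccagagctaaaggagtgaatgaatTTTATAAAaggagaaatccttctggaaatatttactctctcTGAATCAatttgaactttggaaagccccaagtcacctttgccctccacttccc

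Both windows hold the TATA box letters TATAAA, found on either strand in 12.4% of the 32851 promoter windows of this length. Ccl8 has 1 match and Ccl9 has 3, of which 2 overlap on opposite strands. Ccl9 also holds 1 match to the AP-1 letters TGANTCA, found in 6.75% of windows. Letters for an NF-kB core (GGGANTT, 14.4% of windows), STAT factors (TTCNNNGAA, 7.02%), C/EBP (TTGCNNAA, 9.56%) and an interferon response core (GAAANNGAA, 7.13%) were searched on both strands and are not in either window. A match describes the letters only, and a missing match says nothing about the factor.

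Chemokine messages are known for rapid decay through AU-rich elements, so the pentamer ATTTA was counted after the stop codon of the transcript with the longest coding sequence. Ccl11 held 5 copies in 644 bases (7.76 per kb), a density reached by 2.0% of 12416 tested genes with such a sequence. Ccl7 held 2 (4.60 per kb, reached by 8.2%), Ccl2 held 1 (3.64 per kb, 13.7%), Ccl9 held 5 in a longer sequence of 2465 bases (2.03 per kb, 34.3%) and Ccl8 held 0. By count alone, 20.2% of the 12416 genes held at least 5 copies, 47.5% at least 2 and 66.8% at least 1. Decay was not measured here, and these counts describe the annotated sequences only.

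No call was made for the other CC, XC and CX3C ligand genes. Of 20 such genes 6 were listed and 5 tested, and 0 passed the threshold in edgeR, in DESeq2 or in limma-voom. Among all tested genes 24.6% were called higher and 24.9% lower. Ccl27a, a skin chemokine gene with near-identical copies, had an unadjusted edgeR p under 0.05. Their log2 fold changes ran from 0.0039 to 0.58, with a median of 0.22. Ccl6, which lies next to Ccl9, held 5 to 23 counts per library and its media overlapped. Ccl28 held 9 to 17 counts and Ccl27a 29 to 55. The SEs of Ccl6, Ccl28 and Ccl27a were 0.42, 0.39 and 0.23, wider than that of any member, so moderate changes could be missed. Whether these genes differ from the members as a group was not tested.

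Among 19 CC, XC, CX3C and atypical chemokine receptor genes, 7 were listed and 2 tested. Both tested genes are scavenging receptors. Of them 1 was called higher and 1 lower, beside 24.6% and 24.9% of all tested genes. With DESeq2 and with no filter on low counts 2 were lower. Ccr7, which the filter removed and which is named after its values were seen, held 8, 10 and 12 counts in control and 1, 3 and 1 in senescent medium. Ccr10, also removed, leaned the other way, with 6, 10 and 1 counts in control and 12, 7 and 18 in senescent medium. Ackr3, which takes up CXCL12, rose from 51.7 ± 0.931 CPM in control to 64.3 ± 2.95 CPM in senescent medium, by 0.32 ± 0.051 on the log2 scale (adjusted p = 5.32e-06, edgeR). Ackr4, which binds CCL19, CCL21 and CCL25, fell from 2.02 ± 0.268 to 0.718 ± 0.0626 CPM (-1.49 ± 0.31, adjusted p = 0.000179, edgeR), and 8.9% of its exon length overlaps another gene. Ccr1, a receptor for CCL9, was listed with 1 to 6 counts per library, and Ccr2, Ccr3 and Ccr6 were not listed.

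**Figure D4:**
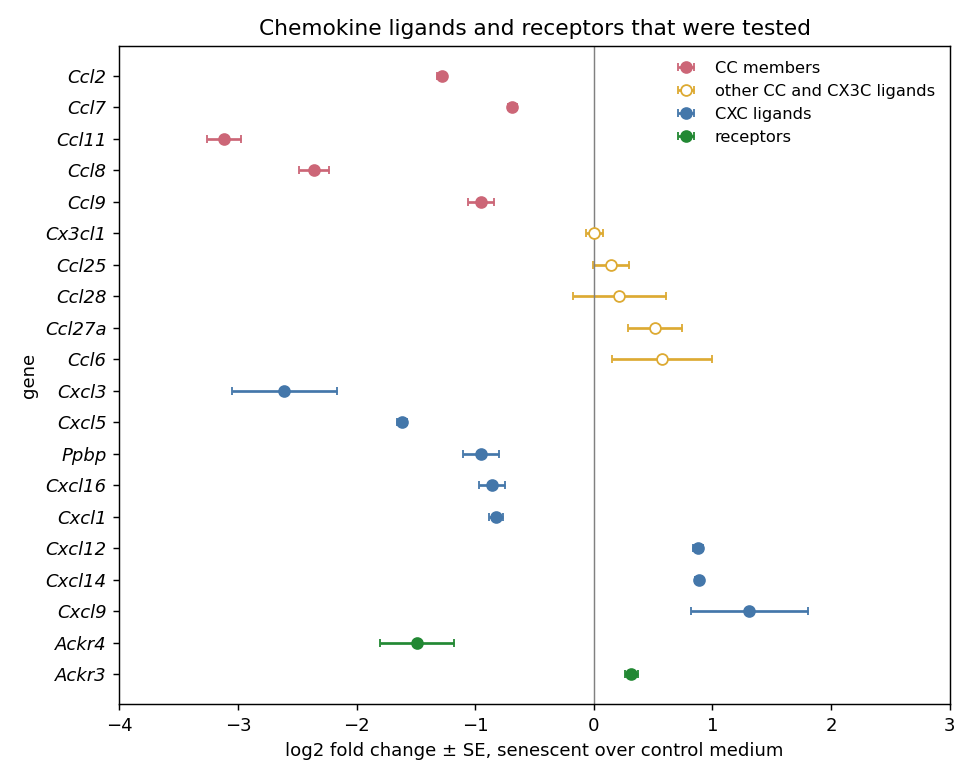
Log2 fold change with SE (senescent over control medium) of the 5 members (red), the other CC and CX3C ligands (yellow), the CXC ligands (blue) and the atypical receptors (green) that were tested; filled points passed the adjusted p threshold of 0.05 and open points did not. The members lie between -0.69 and -3.12, while the yellow points lie between 0.0039 and 0.58. The yellow points of Ccl6 and Ccl28 rest on few counts and have SEs of 0.42 and 0.39, wider than that of any member.

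Other genes known to act before or after chemokine transcription were read against the shares over all tested genes, of which 24.6% were called higher and 24.9% lower. Of 24 receptors and adaptors for inducing cytokine and bacterial signals, 8 rose and 7 fell, near those shares, and their median change on the log2 scale was 0.00095. Il1r1, the signalling receptor for interleukin-1, had 299.9 ± 7.35 CPM in control and 174 ± 1.32 CPM in senescent medium (-0.79 ± 0.035, adjusted p = 4.69e-18, edgeR). Il4ra, the shared receptor chain for interleukin-4 and interleukin-13, which induce Ccl11 in fibroblasts, rose from 282 ± 10.7 to 437 ± 4.91 CPM (0.63 ± 0.035, adjusted p = 8.15e-16, edgeR). The 7 falls became 4 with DESeq2 and when control replicate 3, or else replicate 1 or 3 of the senescent group, was left out.

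Of 26 NF-kB, AP-1, STAT, IRF and C/EBP genes, 14 rose and 3 fell, with a median of 0.20. With library totals 10 rose and 7 fell, and 10 rose without control replicate 2. The list also holds NF-kB kinase and inhibitor genes. Among the inhibitor genes, Nfkbib rose (0.25) and Nfkbia fell (-0.23), so the count is not one of activating factors alone. Ikbkg, a regulatory subunit of the kinase that activates NF-kB, and Stat6, which carries the interleukin-4 signal, changed by 0.55 ± 0.046 and 0.38 ± 0.041. Part of the exons of Ikbkg (5.2%) overlaps G6pdx on the opposite strand. Of 10 tested genes listed as RNA-binding regulators of chemokine mRNA decay, 1 rose and 3 fell, with a median of -0.089. With library totals 0 rose and 6 fell, and 2 rose without control replicate 2. This list also holds Tnfaip3, an inhibitor of NF-kB signalling and not such a regulator, which missed the threshold. The smallest adjusted p values belonged to Rc3h2 and Hnrnpd, which changed by -0.41 ± 0.053 and -0.42 ± 0.056. Another 12 tested genes were for enzymes that trim CC chemokines, heparan sulfate carriers and enzymes that make heparan sulfate. Of these, 4 rose and 5 fell, with a median of -0.046. The membrane proteoglycan gene Sdc3 and the protease gene Mmp14 changed by 0.61 ± 0.034 and 0.41 ± 0.034.

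Interferon-stimulated genes moved opposite to the CC members. Of 10 tested genes 10 rose, with a median of 2.36. The count was 6, 4 and 7 without control replicate 1, 2 and 3, and 9 with DESeq2 and with limma-voom. All 10 were highest in senescent-medium replicate 1. Isg15 had 43.7 CPM there, against 21.2 and 16.8 CPM in senescent-medium replicates 2 and 3. Rsad2 and the transcription factor gene Irf7 changed by 2.80 ± 0.46 and 1.84 ± 0.26. Rsad2 was low, with 4, 5 and 4 counts in control and 48, 33 and 17 in senescent medium. Irf7 was also counted in the list of transcription factor genes above. Ccl5, which interferon also induces, was among the unlisted genes.

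The genes whose pattern over the 6 libraries was most like that of Ccl2 were Kif20b, Lmod1, Aurka and Htra4, by the root mean square distance between centred log2 CPM values (0.037, 0.038, 0.041 and 0.052). Those most like Ccl11 were Oxtr, Slc5a3, Gdf10 and Isyna1 (0.16, 0.17, 0.21 and 0.28). Kif20b, a mitotic kinesin gene, had a log2 fold change of -1.25 ± 0.10, close to that of Ccl2, and the oxytocin receptor gene Oxtr had -3.02 ± 0.11. With 2 groups of 3 libraries such likeness mainly reflects a similar difference between media. Exons of Htra4 are overlapped over 32.9% of their length by a gene on the opposite strand.

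Markers fixed for the sorted cells were abundant, with 7 of 7 stromal genes listed and summed levels of 10076 to 10149 CPM in control and 13387 to 13937 in senescent medium; Of the 6 tested, Col1a1, Col1a2, Dcn and Thy1 rose, by 0.29 to 0.54 on the log2 scale, and the rising sum was mostly that of the collagen genes. Pdgfra, the receptor gene that marks these stromal cells, fell from 265 ± 9.86 to 217 ± 2.07 CPM (-0.29 ± 0.036, adjusted p = 5.65e-08, edgeR). Ly6a, which encodes Sca-1, had 1205 ± 44.7 CPM in control and 1234 ± 46.8 CPM in senescent medium and missed the threshold, and Lum, another stromal gene, had at most 5 counts. Since macrophages also make these chemokines, 20 macrophage genes were examined. Of these, 15 were not listed, among them Ptprc, Adgre1, Itgam, Tyrobp and C1qa, and the 5 listed (Csf1r, Cd68, Lyz2, Cd14 and Mrc1) summed to 18.9 to 22.0 CPM in control and 18.1 to 24.2 CPM in senescent medium. Of these, Lyz2 rose (log2 fold change 0.80 ± 0.12), while Cd14 (-1.14 ± 0.16; also in the list of receptors and adaptors above) and Csf1r (-0.53 ± 0.19, adjusted p = 0.0248, edgeR) fell. All 5 myogenic and 5 of 6 granulocyte markers were not listed. Of the endothelial markers 4 of 7 were listed, and of the mural markers 4 of 5, with sums up to 33.1 and 109 CPM. Most of the endothelial sum was Tek (mean 23.7 CPM in control and 26.9 CPM in senescent medium). Most of the mural sum was Notch3 (78.8 and 78.6 CPM). In those lists the endothelial receptor gene Kdr had 0.709 ± 0.176 CPM in control and 1.68 ± 0.457 CPM in senescent medium (1.25 ± 0.34, adjusted p = 0.00283, edgeR). The pericyte proteoglycan gene Cspg4 rose from 10.7 ± 2.38 CPM to 21.3 ± 2.42 CPM (0.97 ± 0.14, adjusted p = 5.6e-05, edgeR), and the other 5 tested did not pass. The part of these markers in the results was not tested.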

How the data were processed

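RNA of 6 libraries was sequenced as 150 bp pairs from about 600 ng of RNA each. The deposited table gives estimated counts per Ensembl gene, not normalized; STAR, DESeq2 and mm39 are named without role, per the submitters' processing notes, and the sources used here do not give the counter, annotation release or strandedness. Library totals ran from 17228162 to 21659434 counts. Counts were rounded. Symbols came from GENCODE M21 (18092 of 18124 identifiers); exon lengths and gene order came from the same annotation, whose build, GRCm38, differs from mm39, so gene coordinates are not given.

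The main test was the robust quasi-likelihood test of edgeR 4.0.16 (R 4.3.3) with TMM scaling, edgeR's expression filter and the medium as the only term, two-sided, adjusted over 14644 genes. The script was tested on simulated data. SE is the absolute log2 fold change over the square root of F. Alternatives were RLE scaling, library totals, other filters, DESeq2 1.42.0, limma-voom (limma 3.58.1), a replicate block and each library left out. The members, the 8 context lists and the markers were chosen with earlier results of these data known. Genes named were the members, ligands and receptors past the threshold, the 2 smallest adjusted p values of each other list, and the 4 genes nearest to Ccl2 and to Ccl11. Each library counted as 1 replicate. Libraries of a medium differed by more than counting noise, which does not show that their cells or media were independent.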

Additional observations from a re-analysis of the deposited data

How the results depend on the processing

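The 5 log2 fold changes kept their direction and their call in all 65 refits, which covered other scaling, other filters on low counts, DESeq2, limma-voom, the replicate block and each library left out. With 1 library left out they ran from -1.30 to -1.25 for Ccl2, -0.73 to -0.64 for Ccl7, -2.45 to -2.25 for Ccl8, -1.02 to -0.90 for Ccl9 and -3.17 to -3.07 for Ccl11, and the largest adjusted p of any refit was 9.73e-07, for Ccl9. Library totals in place of TMM shifted the median of all genes to -0.082 and gave 2589 genes higher and 4813 lower, against 3607 and 3644. The 4 ratios to Ccl2 kept their sign in every refit. Same-numbered libraries of both media did not deviate together (r = 0.0187, 0.00189 and 0.0262 over genes). With so few libraries this cannot show whether they share cells or a batch of medium, which no label gives. With the replicate block 7402 genes passed the threshold, against 7251, and Ccl2 changed by -1.28. Depth limits Ccl11 and Ccl8 in senescent medium, with 33 to 75 counts per library.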

Other observations

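The CXC chemokine genes, whose products draw neutrophils or lymphocytes, moved both ways in senescent macrophage medium. Of 15 such genes 12 were listed and 8 tested. Of these 8, 5 fell and 3 rose, where 24.9% of all tested genes were called lower and 24.6% higher. Their median change was -0.84 (log2). The neutrophil attractant gene Cxcl5 fell from 242 ± 8.89 to 78.8 ± 2.86 CPM (SD, n = 3 each; -1.62 ± 0.041, adjusted p = 4.78e-24, edgeR), and Cxcl1, Cxcl3, Ppbp and Cxcl16 changed by -0.83, -2.61, -0.95 and -0.85. Cxcl3 was low, with 4 or 5 counts per library in senescent medium. Cxcl14 had 328 ± 3.40 CPM in control and 607 ± 13.5 CPM in senescent medium (0.89 ± 0.033, adjusted p = 7.34e-20, edgeR). Cxcl12, which retains progenitors in the marrow, changed by 0.88 ± 0.042.

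Cxcl9, an interferon-gamma-induced gene with few counts, rose by 1.31 ± 0.49 (adjusted p = 0.0279, edgeR). Its call was lost with DESeq2 (adjusted p = 0.0877), with limma-voom (0.0512) and, in edgeR, without control replicate 1 (0.0527), control replicate 2 (0.146) or senescent-medium replicate 1 (0.395). Exons of Cxcl16 overlap those of Zmynd15 over 18.3% of their length.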
